A study of Mus musculus with 16 samples.

Results

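Dendritic cells are known by a small set of transcripts that mark their subsets and their maturation, and 10 such genes were followed here in B16-OVA tumors. They were Flt3, Zbtb46, Batf3, Xcr1, Cd80, Cd86, Cd83, Ccr7, Fscn1 and Il12b. A gene was represented by every probe set whose single gene symbol in the platform annotation was that of the gene, which gave 21 of the 45037 probe sets analyzed, for 10 of 18193 genes. B16-OVA cells are mouse melanoma cells carrying ovalbumin as a model antigen, and they were grown under the skin of C57BL/6-Ly5.1 mice aged 6 to 12 weeks at injection. RNA of 16 whole tumors was measured on 1 array each, with 4 tumors in each of 4 groups, all taken at day 18. MEKi+CD40 tumors came from mice given the MEK inhibitor GDC-0623 (30 mg/kg daily) and an agonist antibody against CD40 of the mIgG1 type. CD40 tumors came from mice given vehicle and the same antibody. MEKi tumors came from mice given GDC-0623 and a control IgG, and control tumors from mice given vehicle and the control IgG. Antibodies were given on treatment days 3, 5 and 7 and again 1 day before analysis. The tumors were transplants of 1 cell line, and the pieces were not sorted into cell types. A signal is therefore that of the tumor cells and host cells of a piece together. Fewer cells of a type and less RNA per cell cannot be told apart, and neither can a difference between tumors and 1 between the parts sampled.

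Classical dendritic cells develop from marrow precursors under the growth factor receptor Flt3 and are marked by the transcription factor Zbtb46. Their cDC1 subset, which cross-presents antigen to CD8 T cells, needs the transcription factor Batf3 and carries the chemokine receptor Xcr1. When the cells mature, for example after CD40 is engaged, they raise the costimulatory ligands Cd80 and Cd86 and the surface protein Cd83. They also form dendrites with the actin bundler Fscn1, migrate to lymph nodes by the chemokine receptor Ccr7 and secrete cytokines built with Il12b, the subunit that interleukins 12 and 23 share.

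Promoter sequences from RefSeq (GRCm38.p6), each from 250 bases before to 50 bases after the start of the gene, were at hand for 7 of the 10 genes. Shown are those of Batf3 and Flt3, the members whose differences came nearest to the threshold of the test, and of Fscn1, whose signal was far above that of the other tumors in 2 of them. Batf3 lies at chr1:191098164-191098463 on the plus strand, Fscn1 at chr5:142960105-142960404 on the plus strand and Flt3 at chr5:147400440-147400739 on the minus strand, and each is written 5′ to 3′ along the strand of its gene. Capitals mark matches, on either strand, to the letters GAGGAA of PU.1 or TGANTCA of AP-1, to those of NF-kB (GGG and CC with any 5 bases between them) or to those of the interferon-stimulated response element (ISRE, GAAA and GAAA with any 2 bases between them), and overlapping matches run together.
Batf3: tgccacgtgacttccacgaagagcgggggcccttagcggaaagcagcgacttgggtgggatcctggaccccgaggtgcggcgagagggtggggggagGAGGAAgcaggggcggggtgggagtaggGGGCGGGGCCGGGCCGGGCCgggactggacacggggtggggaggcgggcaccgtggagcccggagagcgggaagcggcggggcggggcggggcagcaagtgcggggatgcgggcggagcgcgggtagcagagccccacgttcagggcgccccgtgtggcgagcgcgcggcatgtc
Fscn1: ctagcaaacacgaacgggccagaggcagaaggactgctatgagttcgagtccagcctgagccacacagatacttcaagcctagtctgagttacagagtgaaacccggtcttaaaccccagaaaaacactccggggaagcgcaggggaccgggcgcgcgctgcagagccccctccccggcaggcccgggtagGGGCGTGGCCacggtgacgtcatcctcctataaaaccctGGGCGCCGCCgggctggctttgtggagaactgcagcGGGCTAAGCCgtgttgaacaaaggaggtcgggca
Flt3: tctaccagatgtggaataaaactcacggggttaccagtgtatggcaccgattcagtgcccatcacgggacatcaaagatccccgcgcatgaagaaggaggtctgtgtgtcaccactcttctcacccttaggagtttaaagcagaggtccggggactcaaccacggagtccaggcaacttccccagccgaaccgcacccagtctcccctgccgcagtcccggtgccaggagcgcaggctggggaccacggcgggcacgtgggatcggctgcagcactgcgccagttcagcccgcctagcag
The Batf3 window held 3 NF-kB matches, which overlap one another, and 1 PU.1 match. The Fscn1 window held 3 NF-kB matches, and the Flt3 window held 0 matches to these motifs. Among the 7 genes with a window, 3 held the NF-kB letters, 2 those of PU.1, 2 those of AP-1 and 0 those of the ISRE. Of all 32851 windows in the same table, 50.8% held the NF-kB letters, 28.3% those of PU.1, 7.81% those of AP-1 and 3.44% those of the ISRE. A match is a description of the letters and not of a bound site.

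Signals are given as log2 values and were read against an array background of 4.94, below which lay the mean signal of 95% of the probe sets for olfactory receptors, genes of the nasal epithelium. Taken on each array by itself, this level lay between 4.75 and 5.17, and 39.7% of all probe sets had a mean below 4.94. Of the 10 genes, 6 had a mean above background, namely Flt3, Zbtb46, Batf3, Cd86, Cd83 and Fscn1. The means of Xcr1, Cd80, Ccr7 and Il12b lay below it, and differences between groups are therefore tested and discussed for the other 6. Of the 21 probe sets, 10 had a mean above background. The number of arrays limited the precision.

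The sampled tumor pieces differed in their content of other tissues. Melanocyte markers such as Tyr, Tyrp1 and Pmel were above background in all 16 tumors, as the label of a melanoma implies. The mean log2 signal of 15 skeletal muscle genes was 11.3 in MEKi+CD40 tumor 1, 8.46 in MEKi+CD40 tumor 3 and 7.31 in CD40 tumor 3, against at most 5.41 in the other 13 tumors. The mean of 10 pan-leukocyte markers ranged between 7.44 and 10.2 in MEKi+CD40 tumors, 9.06 and 11.1 in CD40 tumors, 6.27 and 8.18 in MEKi tumors, and 7.59 and 9.34 in control tumors. Among other markers of the lineages concerned, Itgax (CD11c, an integrin of dendritic cells and macrophages) was above background in 16 tumors, whereas of the 7 B cell markers measured 1 had a mean above it. Other dendritic cell genes varied in this respect. Cd209a, Irf4, Mgl2 and Itgae exceeded background in 3, 2, 1 and 1 tumors, Clec10a in 10 and Sirpa in 16.

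Flt3, the receptor for the growth factor that drives dendritic cell development, had nearly the same signal in every tumor. Its only probe set (1419538_at) gave 6.03, 6.08, 6.18 and 6.00 in MEKi+CD40 tumors 1 to 4, 5.65, 5.88, 5.90 and 5.94 in CD40 tumors, 6.05, 6.00, 6.19 and 6.04 in MEKi tumors, and 5.99, 5.85, 5.87 and 5.90 in control tumors. All tumors of mice given GDC-0623 thus had 6.00 or more and all tumors of mice without it 5.99 or less, and the gap between control tumor 1 and the lowest tumors with it was in the last digit. Over all 16 tumors the signal was 5.97 ± 0.13 (SD). Among T cell markers, Cd4 (5.64 to 6.20) and Cd8a (5.72 to 6.26) were similarly flat at this level. Cd3d (5.04 to 9.05) and Cd8b1 (4.16 to 8.01) were not. Whether so flat a signal follows the transcript was not tested. The difference was 0.17 in MEKi+CD40 tumors against control tumors (SE 0.07; limma, adjusted p = 0.232), 0.17 in MEKi tumors against control tumors (SE 0.07; limma, adjusted p = 0.717) and 0.23 in MEKi+CD40 tumors against CD40 tumors (SE 0.09; limma, adjusted p = 0.178). In each of these 3 comparisons the groups did not overlap, and in none did the adjusted p pass 0.05. Between CD40 and control tumors it differed by −0.06 (95% interval −0.25 to 0.13), and between MEKi+CD40 and MEKi tumors by 0.00 (95% interval −0.17 to 0.18).

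Batf3, the transcription factor on which cDC1 depend, varied more. Its probe set (1453076_at) gave 6.23, 5.51, 5.49 and 5.40 in MEKi+CD40 tumors 1 to 4, 6.05, 6.33, 6.56 and 5.94 in CD40 tumors, 5.84, 5.42, 5.82 and 5.75 in MEKi tumors, and 5.88, 5.74, 6.27 and 6.12 in control tumors. The 3 lower MEKi+CD40 tumors lay below every CD40 tumor, while MEKi+CD40 tumor 1 lay within the range of the CD40 tumors. The mean was 5.66 ± 0.38 in MEKi+CD40 tumors and 6.22 ± 0.28 in CD40 tumors (SD, n = 4 each), a difference of −0.56 (SE 0.21; limma, adjusted p = 0.167). Without MEKi+CD40 tumor 1 this difference was −0.75 and its adjusted p 0.0278 (limma), in a fit that called 3508 of 45037 probe sets where 2133 were called with all tumors. Against control tumors, Batf3 differed by −0.35 in MEKi+CD40 tumors (95% interval −0.80 to 0.11), by 0.22 in CD40 tumors (−0.14 to 0.58) and by −0.30 in MEKi tumors (−0.60 to 0.01), each short of an unadjusted p of 0.05.

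Zbtb46, a transcription factor that separates classical dendritic cells from other myeloid cells, differed little between groups. The brightest of its 4 probe sets (1429168_at) gave 6.04, 6.09, 5.69 and 5.90 in MEKi+CD40 tumors 1 to 4, 6.04, 5.91, 6.19 and 5.79 in CD40 tumors, 6.33, 6.23, 6.04 and 5.91 in MEKi tumors, and 6.14, 6.19, 6.29 and 6.02 in control tumors. The groups overlapped in every comparison. The widest difference, between MEKi+CD40 and control tumors, was −0.23 (95% interval −0.48 to 0.02; limma, adjusted p = 0.266). In the same comparison its other probe sets above background differed by 0.02 (1440489_at) and −0.07 (1454884_at), and the remaining one (1453856_at) was below background in every tumor. Xcr1, by which cDC1 respond to the chemokine Xcl1, gave between 3.55 and 4.20 in MEKi+CD40 tumors, 3.63 and 4.08 in CD40 tumors, 3.60 and 3.91 in MEKi tumors, and 3.64 and 4.06 in control tumors. It exceeded the background of its array in 0 of 16 tumors, so no level of it was measured.

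**Figure D1:**
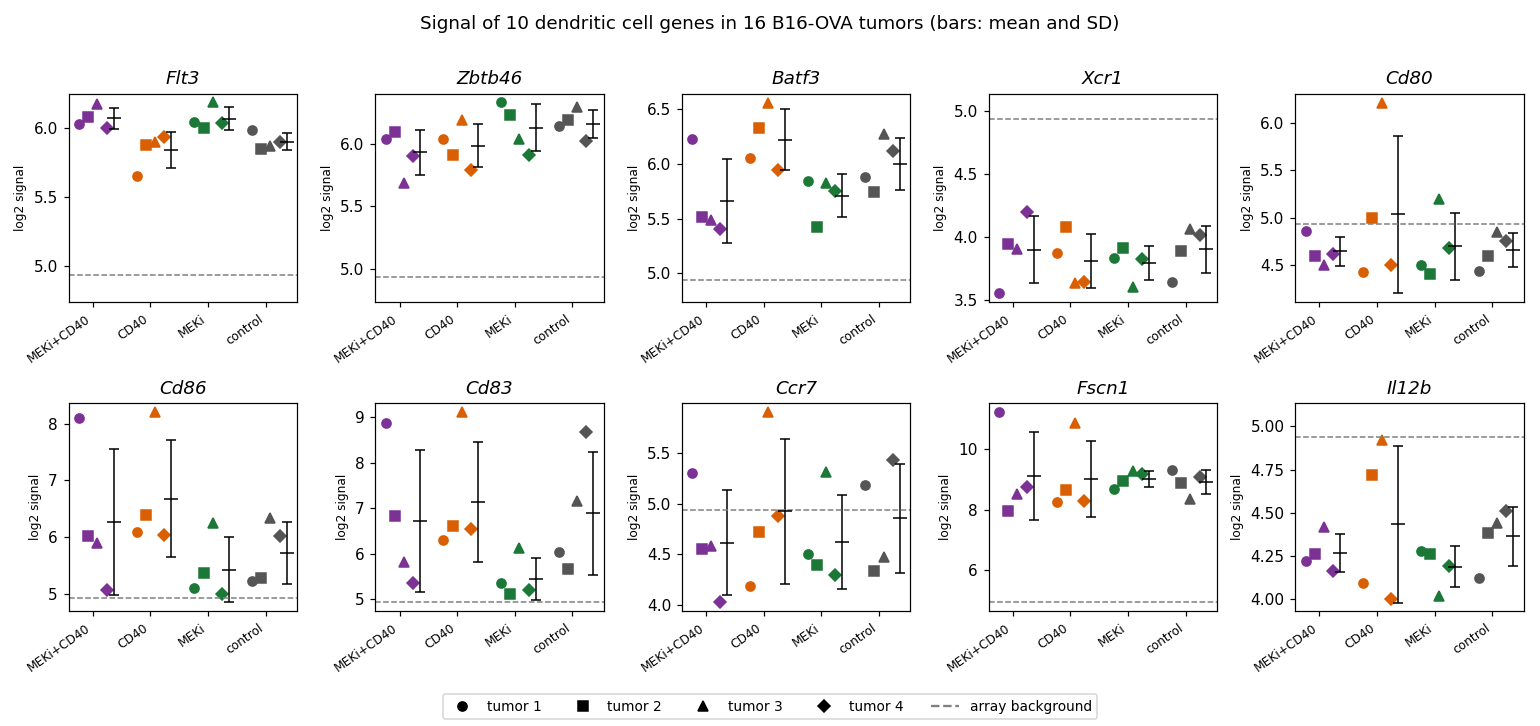
Log2 signal of the brightest probe set of each gene (vertical axis, its own range in each panel) in MEKi+CD40, CD40, MEKi and control tumors, with 1 point per tumor, a marker shape per tumor number, black bars for the mean and SD of 4 tumors and a dashed line for the array background of 4.94. Flt3 and Zbtb46 stay within a narrow band, Xcr1 stays below background in all tumors, and CD40 tumor 3 and MEKi+CD40 tumor 1 stand far above the others for Cd86 and Fscn1.

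Cd86, a ligand of Cd28 and Ctla4 on T cells, was high in 1 tumor of each group given the CD40 antibody. Its brighter probe set (1420404_at) gave 8.10, 6.02, 5.90 and 5.07 in MEKi+CD40 tumors 1 to 4, 6.09, 6.39, 8.20 and 6.04 in CD40 tumors, 5.10, 5.37, 6.25 and 5.00 in MEKi tumors, and 5.23, 5.28, 6.33 and 6.02 in control tumors. CD40 tumor 3 and MEKi+CD40 tumor 1 were the highest, and both are among the tumors with muscle transcripts, whose part in the result was not tested. CD40 tumors differed from control tumors by 0.96 (SE 0.47; 95% interval −0.10 to 2.03; limma, adjusted p = 0.615), and by 0.46 without CD40 tumor 3. The dimmer probe set (1449858_at), which had a mean below background, gave 5.13 to 7.07 in CD40 tumors and 3.91 to 5.47 in control tumors, a difference of 1.26 (SE 0.46; limma, adjusted p = 0.560). In MEKi+CD40 tumors Cd86 differed by 0.56 from control tumors (95% interval −0.80 to 1.91) and by 0.84 from MEKi tumors (−0.53 to 2.22), and without MEKi+CD40 tumor 1 by −0.05 from control tumors and by 0.23 from MEKi tumors.

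Cd83, a surface protein of mature dendritic cells and activated B cells, had the widest spread of the 10 genes within the MEKi+CD40, CD40 and control groups, though not within the MEKi group, where Cd86 and Ccr7 spread more. Its probe set (1416111_at) gave 8.87, 6.82, 5.81 and 5.36 in MEKi+CD40 tumors 1 to 4, 6.30, 6.61, 9.11 and 6.55 in CD40 tumors, 5.36, 5.11, 6.12 and 5.20 in MEKi tumors, and 6.03, 5.67, 7.17 and 8.67 in control tumors. A single tumor at 8.67 or more was present in the MEKi+CD40, CD40 and control groups and absent from the MEKi group. MEKi tumors averaged 5.45 ± 0.46 and control tumors 6.89 ± 1.35 (SD, n = 4 each), a difference of −1.44 (SE 0.58; limma, adjusted p = 0.693). The groups overlapped, and without control tumor 4 the difference was −0.84. MEKi+CD40 tumors differed from MEKi tumors by 1.27 (95% interval −0.32 to 2.85; limma, adjusted p = 0.357), or by 0.55 without MEKi+CD40 tumor 1, and CD40 tumors from control tumors by 0.26 (−1.47 to 1.98), or by −0.40 without CD40 tumor 3.

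Cd80, the partner of Cd86 in costimulation, was near background. Its brightest of 4 probe sets (1451950_a_at) gave 4.86, 4.59, 4.50 and 4.62 in MEKi+CD40 tumors 1 to 4, 4.42, 5.00, 6.21 and 4.50 in CD40 tumors, 4.50, 4.40, 5.20 and 4.68 in MEKi tumors, and 4.44, 4.59, 4.85 and 4.75 in control tumors. It exceeded the background of its array in 5 of 16 tumors and stood clear of it in CD40 tumor 3, where a further probe set (1432826_a_at) gave 5.96. The remaining 2 probe sets of Cd80 were below background in every tumor.

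Ccr7, which guides mature dendritic cells and naive T cells to lymph nodes, was also near background. Its probe set (1423466_at) gave 5.30, 4.55, 4.58 and 4.03 in MEKi+CD40 tumors 1 to 4, 4.19, 4.72, 5.90 and 4.88 in CD40 tumors, 4.50, 4.39, 5.31 and 4.29 in MEKi tumors, and 5.18, 4.33, 4.47 and 5.43 in control tumors. The 5 tumors above the background of their arrays were spread over the groups, with 1 MEKi+CD40, 1 CD40, 1 MEKi and 2 control tumors.

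Fscn1, an actin bundler of mature dendritic cells that fibroblasts and many tumor cells also make, was the only member far above background throughout. Its brightest of 4 probe sets (1416514_a_at) gave 11.23, 7.95, 8.52 and 8.76 in MEKi+CD40 tumors 1 to 4, 8.26, 8.65, 10.87 and 8.27 in CD40 tumors, 8.67, 8.95, 9.27 and 9.18 in MEKi tumors, and 9.31, 8.89, 8.36 and 9.08 in control tumors. The same 2 tumors that led for Cd86 led here. Group means were 9.12 ± 1.45 in MEKi+CD40 tumors, 9.01 ± 1.25 in CD40 tumors, 9.02 ± 0.27 in MEKi tumors and 8.91 ± 0.40 in control tumors (SD, n = 4 each), and the smallest adjusted p of the 5 differences between 2 groups was 0.885 (limma). The next probe set (1448378_at) spanned 7.69 to 8.52, again highest in MEKi+CD40 tumor 1, but gave 8.06 in CD40 tumor 3, below MEKi+CD40 tumor 4 and MEKi tumor 3.

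Il12b, the cytokine subunit, was at background. Its brighter probe set (1419530_at) gave 4.22, 4.26, 4.42 and 4.16 in MEKi+CD40 tumors 1 to 4, 4.09, 4.72, 4.92 and 4.00 in CD40 tumors, 4.28, 4.26, 4.02 and 4.19 in MEKi tumors, and 4.12, 4.38, 4.44 and 4.51 in control tumors. The value of CD40 tumor 3 was the only one above the background of its array, and the other probe set (1449497_at) was below it in all tumors.

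Counted over the 10 genes, 0 had an adjusted p under 0.05 (limma) in any comparison of groups, where the share of all 18193 genes past that threshold was 0.0055% for MEKi+CD40 against control tumors, 0% for CD40 against control, 0% for MEKi against control, 6.44% for MEKi+CD40 against CD40 and 1.55% for MEKi+CD40 against MEKi. At an unadjusted p under 0.05, MEKi+CD40 against control tumors had 1 member (Flt3), beside 25.4% of all genes, and 1 member without overlap, beside 17.3%. CD40 against control tumors had 0 members, beside 9.98% of genes, and 0 without overlap, beside 5.65%. MEKi against control tumors had 2 members (Cd83 and Flt3), beside 7.9% of genes, and 1 without overlap, beside 4.6%. MEKi+CD40 against CD40 tumors had 2 members (Batf3 and Flt3), beside 25.5% of genes, and 1 without overlap, beside 17.8%. MEKi+CD40 against MEKi tumors had 0 members, beside 24.6% of genes, and 0 without overlap, beside 16%. The median difference of the 10 genes was −0.06 in MEKi+CD40 against control tumors (0.03 over all genes), 0.09 in CD40 against control (−0.03 over all genes), −0.14 in MEKi against control (0.01), −0.24 in MEKi+CD40 against CD40 (0.04) and 0.04 in MEKi+CD40 against MEKi (0.005). These medians take in Xcr1, Cd80, Ccr7 and Il12b, whose means lay below background. They rest in part on those genes, and nothing is read from them. The interaction, which asks whether the difference made by the antibody was another with the inhibitor than without it, had 0 members at an adjusted p under 0.05 (limma), beside 0% of genes, and 0 at an unadjusted p under 0.05, beside 17.6%.

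**Figure D2:**
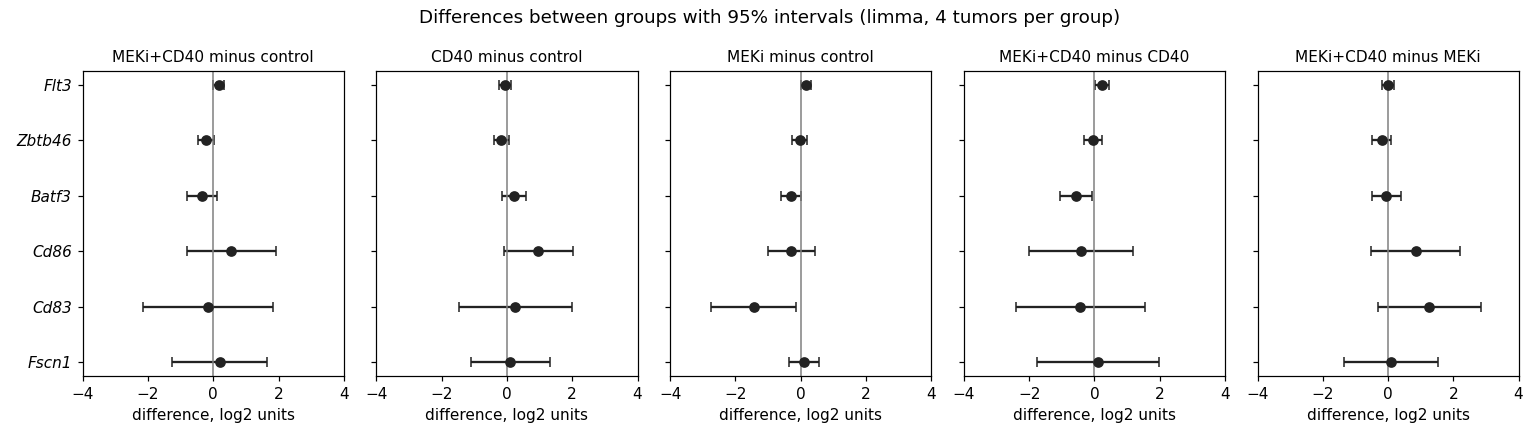
Difference between 2 groups in log2 units (horizontal axis) with its 95% interval from limma for the 6 genes above background, in 5 comparisons of 4 tumors each. The intervals of Cd86 and Cd83 are wider than those of Flt3, Zbtb46 and Batf3 in each comparison, and 0 of the differences shown had an adjusted p under 0.05.

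After the values of Flt3 had been seen, a further comparison set the tumors of both groups given GDC-0623 (MEKi+CD40 and MEKi) against those of both groups without it (CD40 and control), on all 16 arrays. Flt3 differed by 0.20 (SE 0.05; limma, adjusted p = 0.0501) and Batf3 by −0.43 (SE 0.13; limma, adjusted p = 0.0763). Of the 10 genes, 0 had an adjusted p under 0.05, beside 5.4% of all genes. At an unadjusted p under 0.05 there were 2 members, beside 26.2% of genes. The comparison was made because Flt3 had been seen not to overlap between these tumors, so its values for Flt3 are a description, and nothing is read from Flt3 being the 1 member without overlap, beside 0.253% of genes. Without MEKi+CD40 tumor 1, Flt3 differed by 0.21 (limma, adjusted p = 0.0437) and Batf3 by −0.52 (limma, adjusted p = 0.0204), in a fit that called 3151 of 45037 probe sets where 1816 were called with all tumors. The Flt3 value stays a description there too, since its values chose the comparison. The Batf3 value is likewise a description, since the comparison was added after values had been seen. The tumor left out was also the 1 farthest from its group for Batf3, at 6.23 where the other MEKi+CD40 tumors gave 5.40 to 5.51. Batf3 kept its direction without any 1 of the 16 tumors, with differences of −0.52 to −0.37. For Flt3 these differences were 0.17 to 0.22. Its direction could not change there, since none of its values overlapped, so nothing is read from that.

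The partners of these genes were followed in a list of their ligands, receptors and targets, of which 9 were measured and 3 had a mean above background. Stat4, which transmits the signal of interleukin 12, and Il12rb1, the receptor subunit that binds the product of Il12b, were above background in 14 and 15 tumors, whereas Il12a, the other subunit of interleukin 12, and Cd28, the receptor of Cd80 and Cd86, were above it in 0. In MEKi against control tumors 4 of the 9 were lower at an unadjusted p under 0.05 and 0 higher, with Stat4 at −0.57 (SE 0.13), Il12rb1 at −1.25 (SE 0.44) and Ebi3, a cytokine subunit related to the product of Il12b, at −0.56 (SE 0.20), and 0 passed when adjusted (limma). The fourth was Ctla4, which had a mean below background and was above that of its array in 4 of 16 tumors, so no difference is given for it. In MEKi+CD40 against MEKi tumors 3 of the 9 were higher at an unadjusted p under 0.05 and 0 lower, and 0 passed when adjusted (limma). Of all genes, 24.6% had an unadjusted p under 0.05 in this comparison and 7.9% in MEKi against control tumors, in either direction. When adjusted, 1.55% and 0% of all genes passed. Il12rb1 was the partner with the smallest p in CD40 against control tumors (1.48, SE 0.51; limma, adjusted p = 0.550) and in MEKi+CD40 against CD40 tumors (−1.63, SE 0.48; limma, adjusted p = 0.0929).

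Other genes of the subsets were measured beside Batf3 and Xcr1. Of 11 other cDC1 genes, 9 of them with a mean above background, 1 passed the adjusted test in MEKi+CD40 against MEKi tumors, beside 1.55% of all genes. This was Tlr3, the sensor of double-stranded RNA, which was higher by 0.76 (SE 0.14; limma, adjusted p = 0.0496). That call was lost, with 0 of 45037 probe sets called, under cyclic loess, median centring or the replicate block, without MEKi tumor 1, 2 or 3, without MEKi+CD40 tumor 3, and without the 3 tumors with muscle transcripts. In MEKi against control tumors 4 of the 11 were lower at an unadjusted p under 0.05 and 0 higher, among them Tlr3 (−0.70, SE 0.16), Irf8, the factor that acts with Batf3 (−1.77, SE 0.49), and Wdfy4, needed for cross-presentation (−0.95, SE 0.28), and 0 passed when adjusted (limma). Of all genes, 7.9% had an unadjusted p under 0.05 in MEKi against control tumors, in either direction. Irf8 and Tlr3 are not confined to dendritic cells. Of 9 cDC2 genes, 6 had a mean above background. At the adjusted threshold 0 of the 9 passed in the comparisons of 2 groups (limma), where 0% to 6.44% of all genes did. In the comparison of inhibitor against none, added after values had been seen, 1 cDC2 gene was called higher and 1 lower. There 1 cDC1 gene and 1 partner were called lower, beside 5.4% of all genes called (limma). In MEKi against control tumors 5 had a positive and 4 a negative difference, with a median of 0.05, and at an unadjusted p under 0.05 1 was higher and 2 lower. In MEKi+CD40 against MEKi tumors 7 had a positive and 2 a negative difference, with a median of 0.30. At an unadjusted p under 0.05, 3 were higher and 0 lower there (limma), beside 24.6% of all genes in either direction. In CD40 against control tumors 6 had a positive and 3 a negative difference, with a median of 0.20. At that threshold 1 was higher and 0 lower, beside 9.98% of genes. The cDC2 gene Itgax differed by 1.04 in CD40 against control tumors (SE 0.40; limma, adjusted p = 0.565), by −0.94 in MEKi against control (SE 0.25; limma, adjusted p = 0.570) and by 0.76 in MEKi+CD40 against MEKi (SE 0.32; limma, adjusted p = 0.228). Most of the list shared the sign of Itgax in CD40 against control and in MEKi+CD40 against MEKi, but not in MEKi against control. These signs and medians take in the cDC2 genes below background, and nothing further is read from them.

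Genes that mature dendritic cells raise together with Cd83, Cd86 and Ccr7 were measured in a list of 21, of which 16 had a mean above background. At an unadjusted p under 0.05, 6 were higher and 0 lower in CD40 against control tumors, 0 higher and 6 lower in MEKi against control tumors, 10 higher and 1 lower in MEKi+CD40 against MEKi tumors, 3 higher and 1 lower in MEKi+CD40 against control tumors, and 0 higher and 1 lower in MEKi+CD40 against CD40 tumors, and 0 passed when adjusted in each (limma). In the same order, 9.98%, 7.9%, 24.6%, 25.4% and 25.5% of all genes were at that threshold in either direction. When adjusted, 0%, 0%, 1.55%, 0.0055% and 6.44% of all genes passed, in that order. The median difference of this list was 0.55 in CD40 against control tumors, −0.17 in MEKi against control, 0.52 in MEKi+CD40 against MEKi, 0.29 in MEKi+CD40 against control and −0.27 in MEKi+CD40 against CD40, where 15 of the 21 had a negative difference. The comparisons share tumors, and the counts and medians take in the genes below background. Ccl5, a chemokine that T cells and macrophages also make, differed by 2.28 (SE 0.57) in CD40 against control tumors, −1.45 (SE 0.39) in MEKi against control tumors and 2.88 (SE 0.59; limma, adjusted p = 0.0544) in MEKi+CD40 against MEKi tumors. Macrophage markers differed in the same directions. All 12 had a positive difference in CD40 against control tumors, with 7 at an unadjusted p under 0.05, and all 12 a negative one in MEKi against control tumors, with 6 at that threshold. Their summed linear signal ranged between 2357 and 29930 in MEKi+CD40 tumors, 8421 and 42820 in CD40 tumors, 801 and 7139 in MEKi tumors, and 2172 and 12140 in control tumors. The part of macrophages in these differences was not tested.

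Across the 16 tumors, Cd86, Cd83 and Batf3 followed the leukocyte markers, and Flt3 and Zbtb46 did not pass that test. With the mean of the 10 pan-leukocyte markers, Cd86 correlated at r = 0.862 and rho = 0.896 (permutation test, adjusted p = 2e-04 for r and 1e-04 for rho), Cd83 at r = 0.833 and rho = 0.920 (permutation test, adjusted p = 3e-04 and 1e-04), and Batf3 at r = 0.765 and rho = 0.827 (permutation test, adjusted p = 0.0032 and 0.00113). Raw two-sided p for r were 1e-05, the smallest the resamples can give, 3e-05 and 0.00064. These are 3 of 20 relations, of the 10 genes with 2 marker lists, over which p was adjusted. Cd86 also correlated with the fibroblast and matrix markers at r = 0.659 but rho = 0.08 (permutation test, adjusted p = 0.031 and 0.882), with r = 0.03 without CD40 tumor 3 and MEKi+CD40 tumor 1. Below background, Cd80 and Ccr7 with the leukocyte list and Ccr7 and Xcr1 with the matrix list had an adjusted p under 0.05 for r but not for rho (permutation test). Without the 2 tumors farthest from the median of the marker mean, CD40 tumor 3 and MEKi tumor 2, r was 0.864, 0.760 and 0.609. Without CD40 tumor 3 and MEKi+CD40 tumor 1 it was 0.836, 0.712 and 0.632. For deviations from the group means, pooled over the groups and not tested, r was 0.867, 0.839 and 0.873. Single tumors far from their group mean weigh heavily on the pooled value, so it cannot show the relation within each group. For Flt3, r was −0.268 and rho −0.379 (permutation test, adjusted p = 0.405 and 0.293; raw p = 0.315 and 0.146), and for Zbtb46 r was −0.163 and rho −0.109 (permutation test, adjusted p = 0.603 and 0.882; raw p = 0.544 and 0.684). Flt3 and Zbtb46 stayed within 5.65 to 6.19 and 5.69 to 6.33, while the marker mean spanned 6.27 to 11.1. Whether signals as flat as those of Flt3 and Zbtb46 follow their transcripts was not tested. Fscn1 correlated with the mean of 9 fibroblast and matrix markers at r = 0.811 and rho = 0.756 (permutation test, adjusted p = 0.0028 and 0.00495; raw p = 0.00042 and 0.00099), with r = 0.450 without the 2 tumors farthest from the median, MEKi+CD40 tumor 1 and CD40 tumor 3, on which the size of the relation rested. With the leukocyte markers Fscn1 gave r = 0.356 and rho = −0.03 (permutation test, adjusted p = 0.256 and 0.925; raw p = 0.179 and 0.925).

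**Figure D3:**
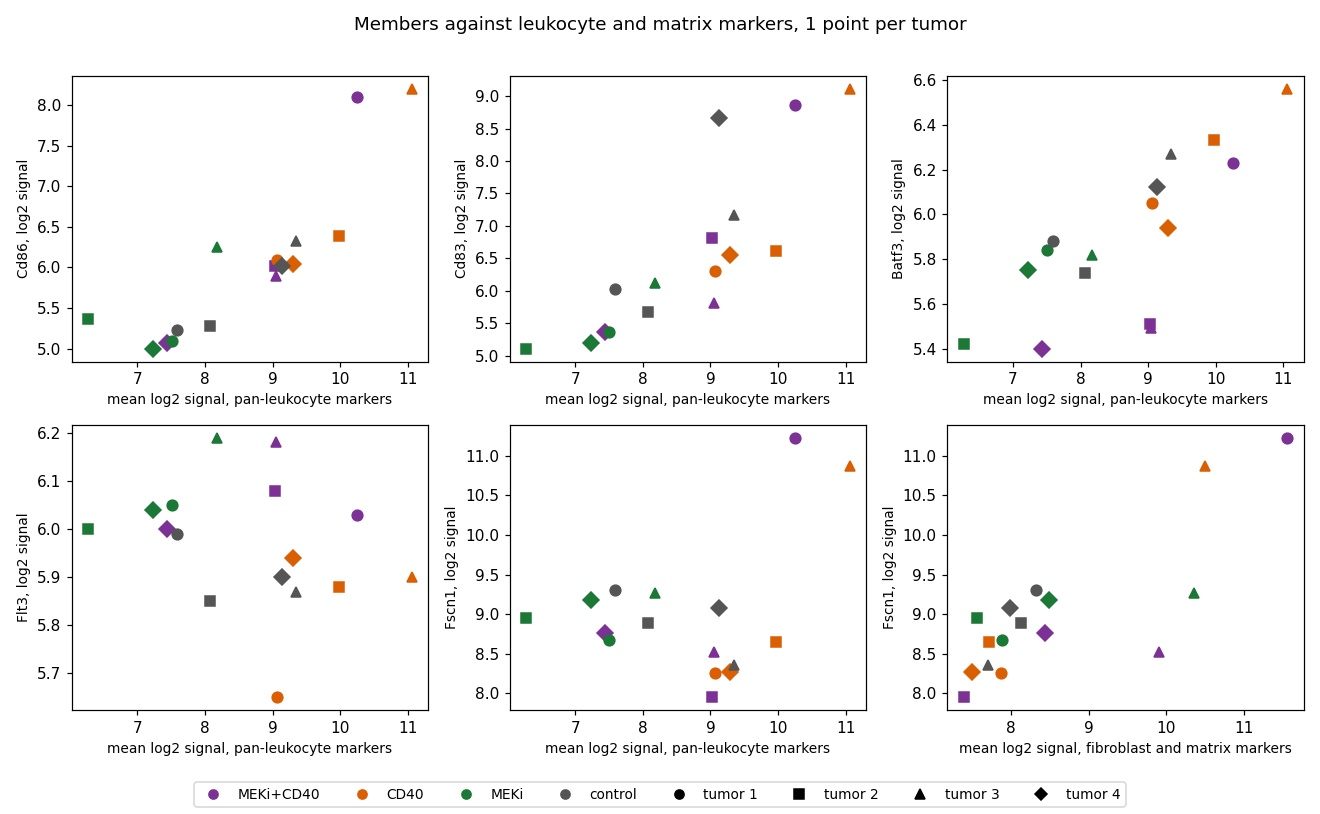
Log2 signal of Cd86, Cd83, Batf3, Flt3 and Fscn1 (vertical axes) against the mean log2 signal of 10 pan-leukocyte markers or, in the last panel, of 9 fibroblast and matrix markers (horizontal axes), with 1 point per tumor, colored by group and shaped by tumor number. Cd86, Cd83 and Batf3 are higher where the leukocyte markers are higher (r of 0.862, 0.833 and 0.765 over 16 tumors), Flt3 stays between 5.65 and 6.19, and the 2 highest Fscn1 values belong to MEKi+CD40 tumor 1 and CD40 tumor 3.

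Among the members themselves, Cd86, Cd83 and Batf3 correlated with one another. In 15 pairs of the 6 genes above background, Cd86 and Cd83 correlated at r = 0.865 and rho = 0.838 (permutation test, adjusted p = 3e-04 and 0.0015; raw p = 2e-05 and 1e-04), Cd83 and Batf3 at r = 0.751 and rho = 0.779 (permutation test, adjusted p = 0.00503 and 0.00398; raw p = 0.00067 and 0.00053), and Cd86 and Batf3 at r = 0.718 and rho = 0.748 (permutation test, adjusted p = 0.00515 and 0.0054; raw p = 0.00103 and 0.00108). Without the 2 tumors farthest from the median of the gene named first, r was 0.678, 0.607 and 0.564. Fscn1 and Cd86 correlated at r = 0.679 (permutation test, raw p = 0.00795, adjusted p = 0.0298) but at rho = 0.04 (permutation test, raw p = 0.871, adjusted p = 0.933), and r was −0.438 without MEKi+CD40 tumor 1 and CD40 tumor 3, so this relation rested on those tumors. Flt3 correlated with none of the other 5 at an adjusted p under 0.05, its nearest being Batf3 at r = −0.489 and rho = −0.520 (permutation test, adjusted p = 0.132 and 0.151; raw p = 0.0528 and 0.0404), with r = −0.457 without the 2 farthest tumors and 0.09 for deviations from the group means.

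The genes whose signal was most like that of each member were taken by the highest Pearson r over the 16 tumors, among all genes above background, as a description without a test. For Cd86 they were AI467606 (r = 0.974), Cyth4 (0.973) and Dok2 (0.969), and for Cd83 Rgs2 (0.948), Wdfy4 (0.939) and Blnk (0.935). Wdfy4 belongs to the cDC1 list, and Blnk is an adaptor of B cell receptor signaling. For Batf3 they were Etv6 (0.906), Stk17b (0.904) and Pla2g4a (0.899). Those of Fscn1 were Col6a3 (0.948), Col15a1 (0.928) and Lamb1 (0.926), which encode chains of collagens and of a laminin. For Flt3 they were Clcn4 (0.850), Arl3 (0.824) and H2aj (0.817), and for Zbtb46 Nfatc3 (0.792), Lnx2 (0.770) and Lsm1 (0.733). The likeness found for Flt3 and Zbtb46 was thus lower than that found for Cd86, Cd83, Batf3 and Fscn1. Without the 2 tumors farthest from the median of the member, r lay between 0.602 and 0.921 over the 18 genes named.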

How the data were processed

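RNA isolated from pieces of 16 tumors, in 4 groups of 4 as labelled, was hybridized to Affymetrix mouse 430 2.0 arrays. The deposited values are log2 signals, which the authors obtained in Chipster with robust multichip averaging (RMA) after quality control, and they were taken as they stand. For RMA, no version is given in the sources used here. With 64 Affymetrix controls removed, 45037 probe sets remained, of which 34945 carry 1 gene symbol in the annotation, 932 several and 9160 none. A gene was represented by its probe set of highest mean signal. Background came from 44 olfactory receptor probe sets. Following the 2-group empirical Bayes tests of the methods, limma 3.58.1 in R 4.3.3 (lmFit, eBayes) was run on the 8 arrays of each pair, and on all 16 for the interaction, with Benjamini-Hochberg adjustment over all probe sets and calls at 0.05. Correlations were tested with 100000 two-sided permutations. Motifs were searched with Python 3.11.15. The fits were tested on simulated data.

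The members, lists, tests and alternatives were chosen with earlier results of these data known. Candidates for naming were the 10 genes with all their probe sets, up to 4 genes of any other list per comparison by smallest p, and the 3 genes most like each member above background, and the text names part of them. Alternatives were 1 fit of all arrays, a block for replicate number, removal of dim probe sets, cyclic loess normalization, centring on the median, a trended robust eBayes, averaging the probe sets of each gene, leaving out any 1 tumor, and leaving out the 3 tumors with muscle transcripts. Added after values had been seen were the comparison of all tumors with inhibitor against all without, and the fits without CD40 tumor 3 and MEKi+CD40 tumor 1.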

Additional observations from a re-analysis of the deposited data

Results flagged for a closer look

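Of 40 groups of 4 tumors tested (10 genes in 4 groups), 4 held a tumor whose gap to the nearest other tumor exceeded the share of its group's whole range that Dixon's test allows for 4 samples, where chance alone gives about 1 in 20. For Batf3 this was MEKi+CD40 tumor 1, at 6.23 where the other MEKi+CD40 tumors gave 5.40 to 5.51 (gap over range 0.868). CD40 tumor 3 met it for 3 genes, namely Cd86 at 8.20 where the other CD40 tumors gave 6.04 to 6.39 (0.838), Cd83 at 9.11 where they gave 6.30 to 6.61 (0.890) and Fscn1 at 10.87 where they gave 8.26 to 8.65 (0.851). In both tumors the muscle markers and the fibroblast and matrix markers were high as well, with a mean of the fibroblast and matrix list of 11.6 in MEKi+CD40 tumor 1 and 10.5 in CD40 tumor 3, and so were the pan-leukocyte markers, at 10.2 and 11.1. The fibroblast and matrix mean also reached 10.4 in a MEKi tumor, while MEKi tumors gave at most 9.27 for Fscn1, 6.25 for Cd86 and 6.12 for Cd83. The part of these tissues in the values was not tested.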

How the results depend on the processing

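Over the 7 comparisons, the number of the 10 genes called was 0 in the fits reported, and it stayed 0 in 52 of 54 alternative fits and in 70 of 72 fits without 1 tumor. Without CD40 tumor 3 and MEKi+CD40 tumor 1, chosen after seeing the data, it was 1 in MEKi+CD40 against CD40 (Batf3, −0.64) and 2 for the tumors with inhibitor against those without (Flt3 0.22, Batf3 −0.47). Those fits called 3207 and 3001 of 45037 probe sets, where 2133 and 1816 were called with all tumors. Leaving out 1 tumor gave 0 to 1 and 0 to 2 in the same comparisons, the higher count without MEKi+CD40 tumor 1 each time. With the replicate numbers as a block the count was 0 in each comparison, and no call of a member changed, while over all probe sets 0 were called in MEKi+CD40 against CD40 (2133 without the block), 0 in MEKi+CD40 against MEKi (518), 0 in MEKi+CD40 against control (4) and 1147 with inhibitor against without (1816). Of 24 pairs of tumors with the same number, 7 deviated together with a correlation above 0.1 (range −0.517 to 0.473). The numbers were therefore not taken as pairs, though with 4 tumors per group this check cannot exclude pairing.

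No member was called in the fits reported, and the values that follow are differences of uncalled members whose sign changed. Without the tumors with muscle transcripts, the differences were −0.40 for Cd83 and −0.52 for Fscn1 in CD40 against control, −0.17 for Cd86 and −0.56 for Fscn1 in MEKi+CD40 against control, −0.03 for Flt3 and −0.66 for Fscn1 in MEKi+CD40 against MEKi, 0.0817 for Zbtb46 and −0.0383 for Fscn1 in MEKi+CD40 against CD40, 0.11 for Zbtb46 in the interaction, and 0.0246 for Zbtb46 with inhibitor against without. Without CD40 tumor 3 and MEKi+CD40 tumor 1 they were −0.40 for Cd83 and −0.52 for Fscn1 in CD40 against control, −0.0517 for Cd86 and −0.50 for Fscn1 in MEKi+CD40 against control, −0.61 for Fscn1 in MEKi+CD40 against MEKi, and 0.0125 for Zbtb46 in the interaction. With the mean of all probe sets, Zbtb46 differed by 0.0169 in MEKi against control, 0.000625 in MEKi+CD40 against control, 0.055 in MEKi+CD40 against CD40 and 0.0381 in the interaction. Median centring gave −0.025 for Flt3 in MEKi+CD40 against MEKi, and cyclic loess 0.0096 for Fscn1 in the interaction. The causes were not tested.

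With 1 tumor left out at a time, signs also changed. In CD40 against control the ranges were −0.0925 to 0.00417 for Flt3, −0.40 to 0.85 for Cd83 and −0.52 to 0.35 for Fscn1. In MEKi against control they were −0.10 to 0.04 for Zbtb46 and −0.0758 to 0.24 for Fscn1. In MEKi+CD40 against control they were −0.0517 to 0.96 for Cd86, −0.89 to 0.43 for Cd83 and −0.50 to 0.59 for Fscn1. In MEKi+CD40 against MEKi they were −0.0333 to 0.0425 for Flt3, −0.24 to 0.0358 for Batf3 and −0.61 to 0.49 for Fscn1. In MEKi+CD40 against CD40 they were −0.12 to 0.0275 for Zbtb46, −1.02 to 0.0992 for Cd86, −1.15 to 0.23 for Cd83 and −0.60 to 0.72 for Fscn1. In the interaction they were −0.00167 to 0.10 for Flt3, −0.0925 to 0.06 for Zbtb46, −0.73 to 0.38 for Cd86 and −0.71 to 0.61 for Fscn1, and for inhibitor against none −0.25 to 0.41 for Fscn1. For the 4 genes below background, 19 of 192 alternative differences and 42 of 288 with 1 tumor left out changed sign. Signal over background limits them, and the 4 tumors per group limit all.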
